A study of Mus musculus with 9 samples.

Results

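The genes described here are 10 that drive or restrain the step from G1 into S phase of the cell cycle in mouse embryonic stem cells. They are the MYC genes Myc, Mycn and Mycl, the D cyclin genes Ccnd1, Ccnd2 and Ccnd3, the kinase genes Cdk4 and Cdk6, the inhibitor gene Cdkn1b and the retinoblastoma gene Rb1. They were taken by name from 35896 genes, and all 10 passed the expression filter that left 14648 genes for testing. RNA was sequenced from E14, an established mouse embryonic stem cell line, in 3 groups of 3 numbered cultures. Untreated cells with LIF2i were kept on gelatin in medium with serum, the cytokine LIF, 1 µM of the MEK inhibitor PD0325901 and 1 µM of the GSK3β inhibitor CHIR99021. Untreated cells without LIF2i had lacked LIF and both inhibitors for 72 h. A further group was withdrawn in the same way and for the same time with 80 µM CK666, a small molecule that blocks the Arp2/3 complex, the nucleator of branched actin filaments. CK666 was dissolved in DMSO, and since DMSO is not named for the untreated cultures, drug and solvent cannot be told apart.

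MYC proteins pair with MAX and bind the E-box sequence, where they promote genes of growth, ribosome synthesis and metabolism. D cyclins activate CDK4 and CDK6, which phosphorylate the RB1 protein and so release E2F factors, the activators of S phase genes; p27, the product of Cdkn1b, holds cyclin-CDK complexes in check. Embryonic stem cells are known for a short G1 phase that relies little on D cyclins, and for MYC activity that supports self-renewal. GSK3β marks MYC and D cyclin proteins for degradation, a control that RNA levels do not show.

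The libraries held 16894327 to 22550952 estimated counts, and levels below are CPM, estimated counts scaled to a common library total with trimmed mean of M-values (TMM) factors, unless TPM, which also divides by transcript length, is named. At these depths 3 counts, taken as the floor of detection, equal 0.133 to 0.178 CPM, for counting error only. Replicate 1 of every group stood apart from replicates 2 and 3 on the second principal component, which held 23.3% of the variance. It also had the fewest genes with counts, 15690, 17295 and 17605 with LIF2i, without it and with CK666, beside 18166 to 18749 in replicates 2 and 3. Its totals were the largest of each group. The cause was not tested. Pluripotency markers summed to 4503 to 6754 CPM with LIF2i, 1971 to 2578 CPM without it and 2329.8 to 3341 CPM with CK666, with 6 of 8 lowered and 1 raised by withdrawal (5 and 1 without the block). The 6 fibroblast or feeder markers summed to 5.53 to 9.39, 28.5 to 32.7 and 16.8 to 26.6 CPM in the same order, mostly from Thy1. The 4 that passed the filter (Thy1, Col1a1, Col1a2 and Dcn) all rose on withdrawal, where 21.1% of all genes did. In CK666 cells against LIF2i 3 of them rose, where 19.8% of all genes did. These counts were 2 and 1 without the replicate block and 3 and 2 without all libraries numbered 1. Col1a2, with 0, 2 and 18 counts with LIF2i, and Dcn, with 0, 7 and 2, passed the filter only through cultures without LIF2i. The filter thus set part of these counts. Lum and Postn were at 0 in 8 and 6 of the 9 libraries. Summed trophoblast markers lay at 24.6 to 60.4, 66.5 to 171 and 49.2 to 120.4 CPM, mostly from the keratin gene Krt8, which rose on withdrawal (1.88 ± 0.61, adjusted p = 0.046); in CK666 cells against LIF2i, Gata3 was raised and Eomes lowered, both lost without the block (adjusted p = 0.054 and 0.11) and held in 11 of 20 alternatives. Cdx2 had 0, 0 and 2 counts with LIF2i, 19, 3 and 8 without it and 1, 0 and 3 with CK666. Neural markers lay at 114 to 248, 161 to 211 and 74.2 to 166 CPM; withdrawal raised Nes and lowered Tubb3 and Sox1, the last pair lost without the block (adjusted p = 0.16 and 0.60). CK666 lowered Nes, the nestin gene, from 128, 143 and 186 CPM to 65.4, 45.2 and 83.8 CPM without overlap (log2 fold change -1.24 ± 0.22, adjusted p = 0.031, 0.27 without the block, 9 of 20 alternatives passed), and its part in the CK666 result for Mycn was not tested. Other neural markers went the other way without passing. Pax6 went from 5.64, 1.76 and 1.73 CPM to 7.06, 9.34 and 10.4 CPM, and Sox1 from 20.9, 2.49 and 3.56 CPM to 45.4, 6.23 and 10.1 CPM. The median log2 fold change of the 4 neural markers tested was 0.50. Without all libraries numbered 1, CK666 raised 2 of them and lowered 0. Endoderm markers lay at no more than 18.8 CPM and mesoderm markers at no more than 4.80 CPM in any library. Of these, Mixl1, a primitive streak gene, passed as raised on withdrawal and in CK666 cells against LIF2i, from 0, 2 and 0 counts to 21, 8 and 20 and to 24, 10 and 17. Pdgfra was raised in CK666 cells against LIF2i (adjusted p = 0.031, 8 of 20 alternatives passed), at 1.51 to 2.32 beside 0.197 to 0.850 CPM. Mixl1 and Pdgfra could not have passed the filter on the LIF2i cultures alone. The part of these changes of cell state in the results below was not tested, and in bulk RNA fewer cells of a type and less RNA per cell cannot be told apart.

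On withdrawal of LIF2i most of these genes passed the test in the fit with the replicate block. Myc, Mycl, Ccnd1, Ccnd2, Cdk6 and Rb1 rose, Ccnd3 and Cdkn1b fell, and Mycn and Cdk4 did not pass the test. That is 8 of 10, where 40.7% of all genes tested passed. Of the 10, 6 rose and 2 fell, where 21.1% and 19.7% of all genes did. Without the block 4 rose and 1 fell, and 3509 of all genes passed in place of 5967. Over the alternatives 4 to 6 rose and 1 to 3 fell. The groups did not overlap for 6 of the 10, where 40.7% of all genes did not overlap. The median log2 fold change over the 10 genes was 0.82, beside 0.01 over all genes.

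Few of them passed the adjusted test for CK666. Mycn fell, which made 1 of 10, where 2.05% of all genes passed, 1.15% raised and 0.894% lowered. The median log2 fold change was -0.01, beside 0.02 over all genes, and 7 of the 10 had an unadjusted p under 0.05, where 19.7% of all genes had; over the alternatives this count was 1 to 7, with 1 without the block. Compared with LIF2i instead, CK666 cells had 5 genes raised (Myc, Mycl, Ccnd2, Cdk6 and Rb1) and 2 lowered (Mycn and Ccnd3), where 36.9% of all genes passed, 19.8% raised and 17.1% lowered. The 3 comparisons share samples in pairs, so they are not independent of each other.

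**Figure D1:**
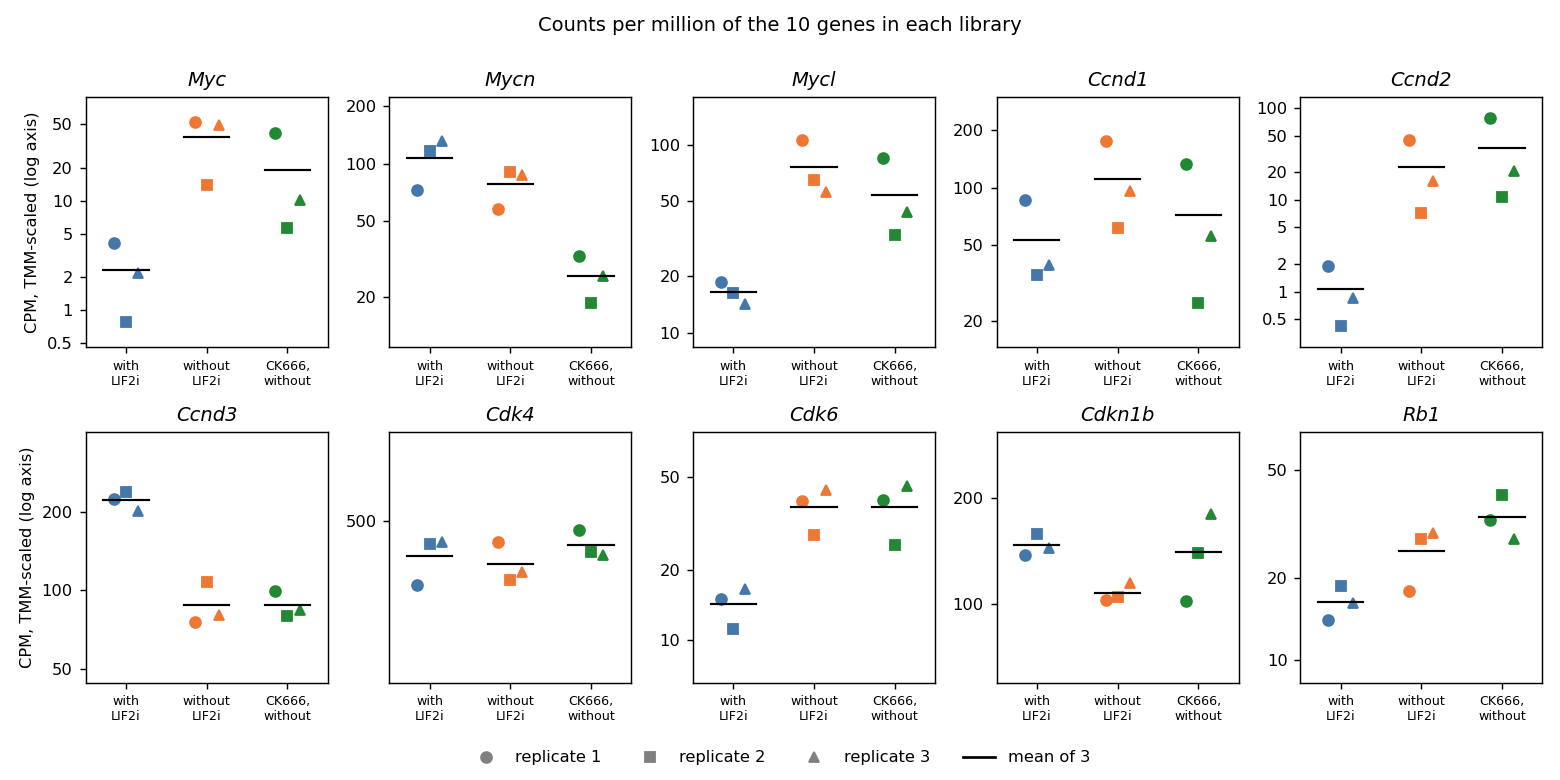
TMM-scaled CPM of the 10 genes in each of the 9 libraries, on a log axis whose range differs between panels. Points are single cultures, shaped by replicate number, and bars are the mean of 3; Myc and Ccnd2 lie between 0.418 and 4.08 CPM with LIF2i and above 5 CPM in every withdrawn culture, and Mycn is lowest in the 3 CK666 cultures.

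Per unit of transcript length, Cdk4 was the most abundant of the 10 in every group. With LIF2i the mean TPM ran from Cdk4 at 601 ± 72.1 through Ccnd3 at 196 ± 65.9, Cdkn1b at 82.2 ± 6.71, Mycn at 60.1 ± 9.18 and Ccnd1 at 23.0 ± 16.8 (SD, n = 3). It ran on through Mycl at 9.12 ± 4.91, Cdk6 at 9.10 ± 2.04, Rb1 at 6.14 ± 1.14 and Myc at 2.19 ± 1.92 to Ccnd2 at 0.337 ± 0.229 (SD, n = 3). In this order the replicates of Ccnd1 overlapped those of Mycl, and those of Mycl overlapped those of Cdk6; the other neighbours did not overlap. Without LIF2i, Cdk4 at 579 ± 101 TPM stood clear of Ccnd3 at 73.5 ± 10.5 TPM, and from Ccnd3 down each gene overlapped the next: Cdkn1b 67.6, Ccnd1 48.9, Mycn 45.9, Mycl 37.4, Cdk6 35.2, Myc 30.4, Rb1 11.3 and Ccnd2 6.90 TPM on average. With CK666 the mean TPM ran from Cdk4 at 660.4 through Cdkn1b at 85.6, Ccnd3 at 71.8, Cdk6 at 43.9, Ccnd1 at 30.4, Mycl at 27.4, Myc at 15.5, Mycn at 15.1 and Ccnd2 at 12.6 to Rb1 at 11.4. Mycn, the fourth of the 10 with LIF2i, was the eighth with CK666, although from Cdk6 down the neighbours overlapped.

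Myc, the founding MYC gene (chromosome 15, 61985391 to 61990374 on GRCm38, forward strand), was low in self-renewing cells. Replicates 1, 2 and 3 with LIF2i gave 4.08, 0.784 and 2.19 CPM, from 83, 15 and 36 counts. Without LIF2i they gave 52.3, 13.8 and 49.2 CPM, and with CK666 41.3, 5.61 and 10.2 CPM. Every withdrawn culture, with or without CK666, lay above every LIF2i culture. Withdrawal raised Myc by 4.15 ± 0.36 on the log2 scale (SE; 17.7-fold, adjusted p = 3.7e-05, higher in 3 of 3 numbered pairs), and CK666 cells exceeded LIF2i cells by 2.87 ± 0.35 (adjusted p = 0.00029, 3 of 3 pairs). The difference between CK666 and untreated withdrawn cells was -1.28 ± 0.31 on the log2 scale, lower in 3 of 3 pairs, with adjusted p = 0.064. Its pairs differed, at -0.34 in replicate 1, -1.28 in replicate 2 and -2.26 in replicate 3. Without replicate 1 the difference was -1.83 and passed (adjusted p = 0.003), as it did without the untreated replicate 1 (0.046), without the CK666 replicate 1 (0.032) and in DESeq2 (0.0014); the 20 alternatives gave 0.0014 to 0.82.

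Mycn, the MYC paralogue first known from neuroblastoma (chromosome 12, 12936093 to 12941914, reverse strand), was the only one of the 10 that passed the test for CK666. Its 3 cultures with LIF2i held 72.3, 116 and 132 CPM. Those without LIF2i held 57.7, 90.7 and 87.0 CPM, and those with CK666 32.7, 18.5 and 25.6 CPM. All 3 CK666 cultures lay below all others, while the LIF2i and untreated withdrawn cultures overlapped. CK666 lowered Mycn by 1.58 on the log2 scale (SE 0.27, 95% interval -2.20 to -0.96, 2.98-fold, adjusted p = 0.031, lower in 3 of 3 pairs). Against LIF2i the CK666 cells were lower by 2.01 (log2 fold change -2.01 ± 0.28, adjusted p = 0.00062), and this passed in 20 of 20 alternatives. Withdrawal itself gave -0.43 ± 0.26 (95% interval -1.02 to 0.16, adjusted p = 0.22), lower in 3 of 3 pairs; it passed without all libraries numbered 1 (0.024) and without CK666 replicate 1 (0.033).

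The CK666 call for Mycn passed in 10 of 20 alternatives, with adjusted p from 3e-07 to 0.34 and a log2 fold change from -2.06 to -1.27. Without the replicate block it was 0.27. It was lost without the LIF2i replicate 3 (0.055), the untreated withdrawn replicates 2 (0.17) and 3 (0.18), or the CK666 replicates 2 (0.19) and 3 (0.15). It was also lost without all libraries numbered 2 (0.28) or 3 (0.34), without the filter on low counts (0.057) and on log2(TPM + 0.1) (0.053). Without all libraries numbered 1, CK666 gave -2.04 (adjusted p = 0.00039).

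Mycn counts fell mainly on Mycn-201, which held 83.1% ± 15.5 of the TPM of the gene with LIF2i, 91.3% ± 4.15 without it and 96.2% ± 3.14 with CK666 (SD, n = 3). The shorter coding transcript Mycn-202 was assigned 442.4, 122.1 and 146.5 counts with LIF2i and 84.0, 97.5 and 56.2 counts without it. With CK666 it was assigned 0, 0 and 10.6 counts. The division of reads between these overlapping transcripts is an estimate, and the shares were not tested. The RefSeq promoter table (GRCm38.p6) held windows for 6 of the 10 genes: Mycn, Mycl, Ccnd3, Cdk4, Cdk6 and Cdkn1b. Each window below covers the 250 bases before the RefSeq start, read 5′ to 3′ on the strand of the gene. The Mycn window, at chr12:12941837-12942086 on the reverse strand, is shown because Mycn was the one of the 10 that passed for CK666 in the edgeR fit. Capitals mark matches to an E2F motif, searched on both strands as TTTCGCGC, TTTGGCGC, TTTCCCGC or TTTGCCGC.
Mycn: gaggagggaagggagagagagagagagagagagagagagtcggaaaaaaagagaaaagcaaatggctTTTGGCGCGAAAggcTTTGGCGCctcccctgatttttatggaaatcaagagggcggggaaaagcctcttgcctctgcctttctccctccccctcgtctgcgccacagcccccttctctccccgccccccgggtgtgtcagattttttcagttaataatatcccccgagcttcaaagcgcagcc
It held 3 matches, an overlapping pair of TTTGGCGC and the reverse-strand match GCGCGAAA, at -183 and -179 relative to the RefSeq start, and a second TTTGGCGC at -168. Of 32851 windows of this length in the table, 1.86% held at least 1 such match and 4 (0.0122%) held 3 or more. The cut-off of 3 is the count of the Mycn window itself, overlapping matches included. The GENCODE start of Mycn-201 lies at -78. A match describes letters only.

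Mycl, the third MYC gene (chromosome 4, 122995652 to 123002485, forward strand), rose on withdrawal. It gave 18.7, 16.2 and 14.2 CPM with LIF2i, 106, 65.2 and 55.8 CPM without it, and 85.4, 32.9 and 44.1 CPM with CK666. Every withdrawn culture was above every LIF2i culture, and the CK666 cultures overlapped the untreated ones. Withdrawal raised Mycl by 2.15 ± 0.21 on the log2 scale (4.45-fold, adjusted p = 6.4e-05), and CK666 cells were above LIF2i cells by 1.63 ± 0.21 (adjusted p = 0.00034), each in 3 of 3 pairs. The CK666 difference was -0.53 ± 0.20 with adjusted p = 0.18; it passed without all libraries numbered 1 (-0.67, adjusted p = 0.036) and without the LIF2i replicate 1 (-0.55, adjusted p = 0.036).

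As shares of the summed MYC TPM, which were compared without any passing the adjusted test, Mycn held 84.2% ± 9.34 with LIF2i, 42.5% ± 14.4 without it and 29.0% ± 7.36 with CK666 (SD, n = 3). Mycl held 12.8% ± 6.81, 32.0% ± 9.26 and 47.8% ± 1.99, and Myc held 3.01% ± 2.67, 25.5% ± 11.6 and 23.1% ± 8.72. The share of Mycl was higher with CK666 than without it in 3 of 3 pairs, and the groups did not overlap, at 46.6%, 50.1% and 46.8% against 41.8%, 30.7% and 23.5%. The level of Mycl was lower with CK666 in each of these pairs, at 46.2, 14.8 and 21.2 against 58.6, 27.3 and 26.4 TPM. The summed TPM was 71.4 ± 7.29, 114 ± 25.6 and 58.0 ± 36.4. It was lower with CK666 than without it in 3 of 3 pairs, as was the share of Mycn, both with overlapping groups. A two-sided exact permutation test of 3 against 3 cannot go below p = 0.10, the value for this share and for the Mycn share on withdrawal, and the smallest of the 24 p-values adjusted together was 0.17.

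**Figure D2:**
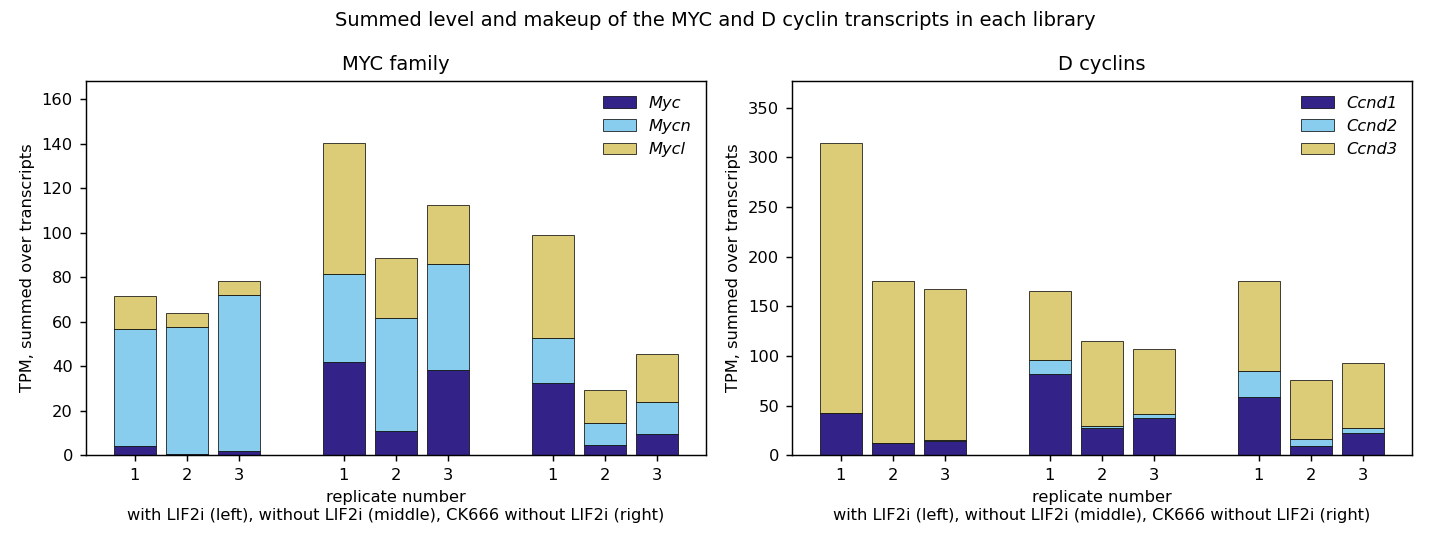
Stacked TPM of the MYC genes (left) and of the D cyclin genes (right), 1 bar for each of the 9 libraries, grouped by condition and numbered by replicate. On average Mycn takes 84.2% of MYC transcripts with LIF2i and 29.0% with CK666, and Ccnd3 takes 90.1% of D cyclin transcripts with LIF2i and 59.1% without it.

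Among the D cyclins, withdrawal raised Ccnd1 and Ccnd2 and lowered Ccnd3. Ccnd1, which encodes cyclin D1 (chromosome 7, 144929931 to 144939925, reverse strand), gave 86.1, 34.9 and 39.2 CPM with LIF2i. It gave 177, 61.6 and 95.8 CPM without LIF2i and 134, 24.7 and 55.9 CPM with CK666. Replicate 1 was the highest in each group, and all groups overlapped. Withdrawal raised Ccnd1 by 1.04 ± 0.20 on the log2 scale (2.06-fold, adjusted p = 0.0032, 3 of 3 pairs), a call that was lost without the replicate block (adjusted p = 0.25) and held in the other 19 alternatives. With CK666 it was lower in 3 of 3 pairs, by -0.80 ± 0.20, with adjusted p = 0.072. That difference passed without all libraries numbered 1 (-1.04, 0.018), without the LIF2i replicate 1 (0.038) or 2 (0.047), without the CK666 replicate 1 (0.048) and in DESeq2 (0.005). CK666 cells differed from LIF2i cells by 0.24 ± 0.20 (95% interval -0.22 to 0.70, adjusted p = 0.39); without all libraries numbered 2 this was 0.56 (adjusted p = 0.048) and without the CK666 replicate 2 it was 0.52 (0.045).

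Ccnd2, which encodes cyclin D2 (chromosome 6, 127125162 to 127152193, reverse strand), rose with Myc to form the pair of strongest rises on withdrawal, and led the 10 genes in CK666 against LIF2i. It was at 1.92, 0.418 and 0.850 CPM with LIF2i, from 39, 8 and 14 counts. It reached 44.7, 7.27 and 16.0 CPM without LIF2i and 78.8, 10.8 and 20.8 CPM with CK666. No withdrawn culture overlapped a LIF2i culture. The log2 rise on withdrawal was 4.37 ± 0.22 (20.7-fold, adjusted p = 3.8e-06) and the difference between CK666 and LIF2i was 4.97 ± 0.23 (31.3-fold, adjusted p = 3e-06), each in 3 of 3 pairs. On log2(TPM + 1), which shrinks folds of low genes, these were 2.31 and 3.03 and still passed. CK666 cells were above untreated withdrawn cells in 3 of 3 pairs, by 0.60 ± 0.17, with adjusted p = 0.099; this passed in 1 of 20 alternatives, without LIF2i replicate 1 (0.029).

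Ccnd3, which encodes cyclin D3 (chromosome 17, 47505051 to 47599691, forward strand), made up most of the D cyclin TPM in 8 of the 9 libraries, the exception being the untreated withdrawn replicate 1, at 41.8% beside 49.7% for Ccnd1. Its level was 224, 237 and 201 CPM with LIF2i, 75.3, 108 and 80.6 CPM without it, and 99.7, 80.0 and 83.9 CPM with CK666. All LIF2i cultures lay above all withdrawn ones. Withdrawal lowered Ccnd3 by 1.33 on the log2 scale (SE 0.15, 2.51-fold, adjusted p = 0.00016), and CK666 cells were lower than LIF2i cells by the like amount (log2 fold change -1.32 ± 0.15, adjusted p = 0.00019), both in 3 of 3 pairs and in 20 of 20 alternatives. CK666 against untreated withdrawn cells gave 0.01 ± 0.15 (95% interval -0.33 to 0.34, adjusted p = 0.98). Of the 2 RefSeq starts for Ccnd3, the second lies 3 bases from the start of Ccnd3-205, the transcript that held 88.7% to 95.4% of the TPM of the gene on average. In the LIF2i replicate 1 that share was 74.7%, with 8.72% on the short Ccnd3-207, and the TPM of the gene was 271 there, against 163 and 152 in replicates 2 and 3. Ccnd3-205 alone had 202.8, 158.2 and 143.6 TPM.

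As shares of the summed D cyclin TPM, Ccnd3 held 90.1% ± 3.47 with LIF2i, 59.1% ± 16.3 without it and 66.8% ± 13.8 with CK666 (SD, n = 3). Ccnd1 held 9.71% ± 3.42, 36.0% ± 13.2 and 23.5% ± 10.4, and Ccnd2 held 0.152% ± 0.0993, 4.84% ± 3.15 and 9.73% ± 4.77. With CK666 against without it, the shares of Ccnd2 and Ccnd3 were higher and that of Ccnd1 lower in 3 of 3 pairs, with overlapping groups. The fall of the Ccnd3 share on withdrawal was seen in 3 of 3 pairs without overlap (two-sided exact permutation p = 0.10, the smallest that 3 against 3 allows; adjusted p = 0.17).

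Of the kinase partners of the D cyclins, Cdk6 rose on withdrawal while Cdk4 did not pass the test; the difference between them was not tested. Cdk4 (chromosome 10, 127063534 to 127067920, forward strand) gave 354, 441 and 446 CPM with LIF2i, 446, 364 and 379 CPM without it, and 477, 424 and 416 CPM with CK666. The groups overlapped, and no alternative passed in any of the 3 comparisons. The 95% interval of the log2 difference was -0.39 to 0.25 for withdrawal, -0.17 to 0.47 for CK666 and -0.24 to 0.40 for CK666 against LIF2i. Cdk6 (chromosome 5, 3341485 to 3531008, forward strand) gave 15.0, 11.1 and 16.5 CPM with LIF2i, 39.5, 28.1 and 43.9 CPM without it, and 39.7, 25.5 and 45.9 CPM with CK666. Every withdrawn culture was above every LIF2i culture, and the withdrawn groups covered nearly the same range.

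Withdrawal raised Cdk6 by 1.38 ± 0.13 on the log2 scale (2.60-fold, adjusted p = 7.2e-05) and CK666 cells were above LIF2i cells by 1.36 ± 0.13 (adjusted p = 9.4e-05), each in 3 of 3 pairs and 20 of 20 alternatives. The CK666 difference was -0.02 ± 0.13 (95% interval -0.32 to 0.27, adjusted p = 0.95). On the scales that use transcript length it was 0.31 to 0.34 and did not pass. The 425-base Cdk6-205 held 54.8% ± 1.03 of Cdk6 TPM without LIF2i from 34.7 to 48.3 counts a library, so the TPM of Cdk6 leans on few reads. Cdk6 made up 1.49% ± 0.284 of the summed TPM of both kinases with LIF2i, 5.68% ± 0.417 without it and 6.18% ± 0.876 with CK666 (SD, n = 3), a share set after these data were seen and not tested. The promoter windows of both genes (GRCm38.p6, forward strand) are shown because only Cdk6 passed the test; capitals mark the E-box CACGTG, which reads the same on both strands, and the TCF motif CTTTGAT, which on the reverse strand reads ATCAAAG. The Cdk4 window is chr10:127063285-127063534 and the Cdk6 window is chr5:3343643-3343892.
Cdk4: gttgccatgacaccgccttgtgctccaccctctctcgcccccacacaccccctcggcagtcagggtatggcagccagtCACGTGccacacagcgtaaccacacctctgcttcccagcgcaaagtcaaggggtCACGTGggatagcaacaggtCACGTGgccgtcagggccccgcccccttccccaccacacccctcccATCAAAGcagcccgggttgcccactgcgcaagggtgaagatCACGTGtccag
Cdk6: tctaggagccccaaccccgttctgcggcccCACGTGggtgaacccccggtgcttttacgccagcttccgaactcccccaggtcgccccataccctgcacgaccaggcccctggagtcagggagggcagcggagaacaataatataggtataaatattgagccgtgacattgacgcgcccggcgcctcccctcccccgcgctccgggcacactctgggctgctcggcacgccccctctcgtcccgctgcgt
The Cdk4 window held 4 E-boxes, at -172, -118, -98 and -11 relative to the start, and 1 reverse-strand TCF match at -52; the Cdk6 window held 1 E-box, at -220. E-boxes were in 6.02% of all 32851 windows and TCF matches in 3.21%, and 7 windows (0.0213%) held 4 or more E-boxes. The cut-off of 4 is the count of the Cdk4 window itself. The start of Cdk6-205 lies at -2408 relative to this RefSeq start.

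Cdkn1b, which encodes the inhibitor p27 (chromosome 6, 134920401 to 134925513, forward strand), fell on withdrawal by a small amount. It gave 138, 158 and 144 CPM with LIF2i, 103, 105 and 115 CPM without it, and 102, 139.6 and 180.3 CPM with CK666. The untreated withdrawn cultures lay below the LIF2i cultures, and the CK666 cultures spread over both. Withdrawal gave a log2 fold change of -0.45 ± 0.15 (1.37-fold, adjusted p = 0.039, lower in 3 of 3 pairs), and CK666 gave 0.36 ± 0.15 (adjusted p = 0.23, higher in 2 of 3 pairs), which passed only without all libraries numbered 1 (0.52, adjusted p = 0.033). The withdrawal call held in 7 of 20 alternatives. It was lost without the replicate block (0.15), with library totals alone (0.085) and on the length-aware scales (0.20 to 0.29). Leaving out libraries ended it for all numbered 2 (0.22) or 3 (0.085), for LIF2i replicates 1 (0.11) and 2 (0.14), for untreated withdrawn replicates 1 (0.057), 2 (0.15) and 3 (0.15) and for CK666 replicate 2 (0.062).

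Rb1, which encodes the retinoblastoma protein (chromosome 14, 73183673 to 73325822, reverse strand), rose. It gave 14.0, 18.7 and 16.2 CPM with LIF2i, 17.9, 27.9 and 29.2 CPM without it, and 32.6, 40.4 and 27.8 CPM with CK666. The LIF2i and untreated withdrawn cultures overlapped, whereas all CK666 cultures were above all LIF2i cultures. The log2 rise was 0.61 ± 0.19 on withdrawal (1.52-fold, adjusted p = 0.026) and 1.05 ± 0.19 for CK666 against LIF2i (2.07-fold, adjusted p = 0.0022), each in 3 of 3 pairs, and the CK666 difference was 0.44 ± 0.18 (adjusted p = 0.22). The withdrawal call held in 11 of 20 alternatives and was lost without the block (0.10), without all libraries numbered 2 (0.12) or 3 (0.17) and on log2(TPM + 1) (0.061) and log2(TPM + 0.1) (0.057). It was also lost without LIF2i replicate 2 (0.066) or 3 (0.088) and without untreated withdrawn replicate 2 (0.070) or 3 (0.17). The comparison of CK666 with LIF2i passed in 18 of 20 and missed on those TPM scales (0.057 and 0.053).

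**Figure D3:**
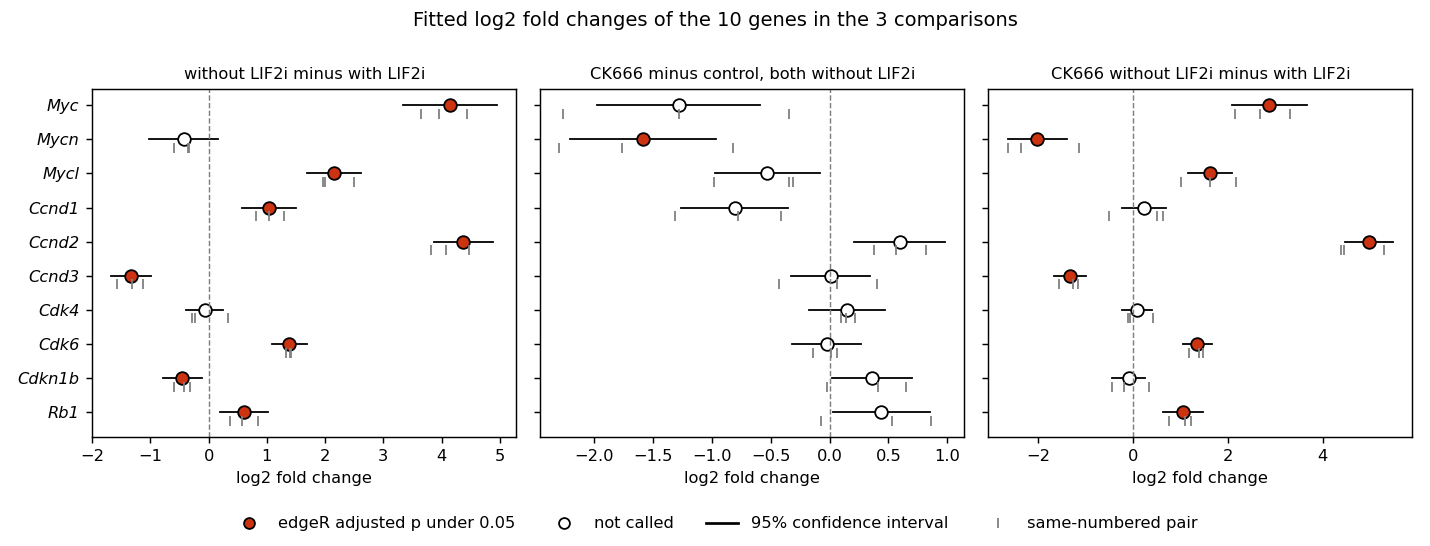
Log2 fold change of the 10 genes in the 3 comparisons, with 95% intervals from the fit, ticks for the same-numbered pairs, an axis range that differs between panels, and points filled where the adjusted p is under 0.05. Withdrawal spans -1.33 for Ccnd3 to 4.37 for Ccnd2, and in the CK666 comparison Mycn at -1.58 is the only filled point.

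Exonic bases of 6 of the 10 genes are shared with a gene on the opposite strand, and no strand setting is given, so reads of such pairs cannot be told apart. The shared part was 23.4% for Ccnd1 (with LTO1), 19.7% for Cdk4 (Tspan31), 14.9% for Rb1 (Lpar6 and Rcbtb2), 7.86% for Ccnd2, 4.11% for Ccnd3 (Bysl) and 2.63% for Cdk6. Myc, Mycn, Mycl and Cdkn1b shared none.

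Genes around the 10 were read from lists that held 105 further genes, all tested. Of 12 partners and antagonists of MYC, withdrawal raised 2 and lowered 3, where 21.1% of all genes rose and 19.7% fell, and the median log2 fold change was -0.19. The counts were 1 and 2 without the block, 3 and 4 without all libraries numbered 1, and 1 to 3 and 1 to 4 over the alternatives. Mxd4, which competes with MYC for MAX, rose by 2.14 ± 0.23 (adjusted p = 0.00012) and Mnt, another such repressor, by 0.45 ± 0.14 (0.025, 0.25 without the block). Mxd1 fell by 0.97 (log2 fold change -0.97 ± 0.30, adjusted p = 0.027, 0.074 without the block), and Zbtb17, a MYC-binding factor, and Mga, a MAX partner, changed by -0.71 ± 0.12 (0.0016) and -0.57 ± 0.13 (0.0075). Max itself gave -0.17 ± 0.17 (adjusted p = 0.44), and none of the 12 passed in edgeR for CK666, where 3 had an unadjusted p under 0.05 (19.7% of all genes had) and the 20 alternatives gave 0 to 1.

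Of 27 other regulators of G1 and S entry, withdrawal raised 7 and lowered 8, where 21.1% of all genes rose and 19.7% fell; without the block it raised 2 and lowered 6. Cdkn1c, which encodes the inhibitor p57, rose from 7.91, 7.58 and 6.74 CPM to 62.6, 21.5 and 26.9 CPM (log2 fold change 2.15 ± 0.25, adjusted p = 0.00021). The pocket protein genes moved against Rb1, with Rbl2 at -1.60 ± 0.25 (0.0010) and Rbl1 at -1.08 ± 0.13 (0.00026). E2f1 changed by -1.24 ± 0.17 (0.00053) and Cdk2, the partner of cyclin E, by -0.81 ± 0.14 (0.0015). CK666 lowered 1 of the 27, Ccne2, which encodes cyclin E2, where 0.894% of all genes were lowered. An unadjusted p under 0.05 was found for 12 of the 27 and for 19.7% of all genes. Ccne2 gave 18.0, 9.71 and 16.7 CPM without LIF2i and 9.53, 3.51 and 4.41 CPM with CK666, which did not overlap (log2 fold change -1.43 ± 0.25, adjusted p = 0.030, 0.42 without the block, 10 of 20 alternatives passed). Its exons share 17.4% of their bases with Ints8 on the other strand. Under CK666, Ccne1 gave -0.80 ± 0.18 (0.057), Cdk2 -0.40 ± 0.14 (0.15), Cdkn1a, the p21 gene, -0.44 ± 0.26 (0.40), Rbl1 0.56 ± 0.13 (0.062) and E2f1 0.46 ± 0.17 (0.19), none of which passed. On withdrawal Ccne1 rose by 0.51 ± 0.18 (0.048, 0.27 without the block) and Cdkn1a changed by -0.98 ± 0.26 (0.017). Without all libraries numbered 1, CK666 raised 3 and lowered 6 of the 27, in a setting where 1811 of all genes passed in place of 300.

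Of 30 MYC target genes of ribosome synthesis and metabolism, withdrawal raised 8 and lowered 4, where 21.1% of all genes rose and 19.7% fell, with a median of 0.21. Rcl1 rose by 0.69 ± 0.15 (adjusted p = 0.0062) and Cad, an enzyme of pyrimidine synthesis, by 0.53 ± 0.12 (0.0078, 0.31 without the block), whereas the transferrin receptor gene Tfrc gave -1.51 ± 0.21 (0.00048). Without the block the counts were 1 and 1, and over the alternatives 1 to 13 and 1 to 4. CK666 lowered 1 of the 30, where 0.894% of all genes were lowered, and 6 of the 30 had an unadjusted p under 0.05, where 19.7% of all genes had. Polr1b, a subunit of RNA polymerase I, was lowered from 180.1, 93.8 and 101 CPM to 134, 48.3 and 55.0 CPM (-0.75 ± 0.14, adjusted p = 0.038, 0.75 without the block, 8 of 20 alternatives passed), with overlapping groups. Without all libraries numbered 1 the count lowered by CK666 was 9, in a setting where 1811 of all genes passed for CK666 in place of 300. Against LIF2i, CK666 cells had 5 raised and 5 lowered, where 19.8% and 17.1% of all genes were, among them Tfrc at -2.43 ± 0.21 and the lactate dehydrogenase gene Ldha at -1.66 ± 0.41 (adjusted p = 0.014, 0.10 without the block). These counts were 0 and 1 without the block, 3 and 10 without all libraries numbered 1, and 0 to 7 and 1 to 10 over the alternatives.

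Of 20 E2F target genes, withdrawal raised 0 and lowered 11 in edgeR, where 21.1% of all genes rose and 19.7% fell, with a median of -0.47 and an unadjusted p under 0.05 for 13, where 48.7% of all genes had one. Mybl2, a cell cycle transcription factor, changed by -1.96 ± 0.19 (adjusted p = 5.9e-05), Rrm2, a ribonucleotide reductase subunit, by -1.13 ± 0.25 (0.0066) and the DNA methylation cofactor Uhrf1 by -1.08 ± 0.12 (0.00012). Over the alternatives the number lowered was 4 to 13, and it was 4 without the block. CK666 raised Mybl2, from 259, 286 and 204 CPM to 435, 649 and 384 CPM without overlap (0.96 ± 0.18, adjusted p = 0.036, 0.33 without the block, 9 of 20 alternatives passed), and none of the other 19 passed in edgeR; the unadjusted p was under 0.05 for 6 of the 20 and for 19.7% of all genes. Against LIF2i, 16 of 20 were lower in CK666 cells, where 17.1% of all genes were, 5 without the block and 19 without all libraries numbered 1.

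Of 16 genes of the WNT, ERK, LIF, FOXO and LIN28 axes, among them feedback genes, withdrawal raised 8 and lowered 2, where 21.1% of all genes rose and 19.7% fell. Without the block it raised 6 and lowered 2. Their action on the 10 genes was not tested. The ERK feedback genes Dusp6 and Spry4 rose by 3.95 ± 0.50 (adjusted p = 0.00073) and 2.70 ± 0.44 (0.0017). The WNT effector gene Lef1 rose by 3.90 ± 0.46 (0.00024) and Lin28a, a blocker of let-7 maturation, by 1.82 ± 0.23 (0.00033). Socs3, a feedback gene of LIF signalling, gave -3.88 ± 0.17 (2e-06) and Stat3, its transcription factor, -1.80 ± 0.22 (0.00025). CK666 lowered 1 of the 16, where 0.894% of all genes were lowered, and 1 of the 16 had an unadjusted p under 0.05, where 19.7% of all genes had. Socs3 was lowered from 7.67, 18.5 and 21.6 CPM to 4.93, 10.1 and 12.8 CPM (-0.76 ± 0.16, adjusted p = 0.047, 0.70 without the block, 6 of 20 alternatives passed), with overlapping groups.

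The CK666 calls of Ccne2, Polr1b, Mybl2 and Socs3 did not hold without all libraries numbered 2 (adjusted p = 0.27, 0.34, 0.28 and 0.35 in that order) or numbered 3 (0.34, 0.38, 0.30 and 0.34). They were also lost without the CK666 replicate 2 (0.20, 0.22, 0.22 and 0.26) or 3 (0.14, 0.17, 0.10 and 0.13) and without the untreated withdrawn replicate 2 (0.15, 0.18, 0.17 and 0.18) or 3 (0.18, 0.20, 0.22 and 0.26). On the length-aware scales none passed, with 0.12 to 0.16 for Ccne2, 0.085 to 0.092 for Polr1b, 0.063 to 0.10 for Mybl2 and 0.61 to 0.62 for Socs3, whose log2 fold change there was -0.36 to -0.33. In TPM, Socs3 was higher with CK666 in replicate 1 (8.45 against 5.29). Without the untreated withdrawn replicate 1, Polr1b (0.064), Mybl2 (0.073) and Socs3 (0.065) missed. Polr1b missed without LIF2i replicate 3 (0.060) and Socs3 without LIF2i replicate 2 (0.055) or CK666 replicate 1 (0.081).

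**Figure D4:**
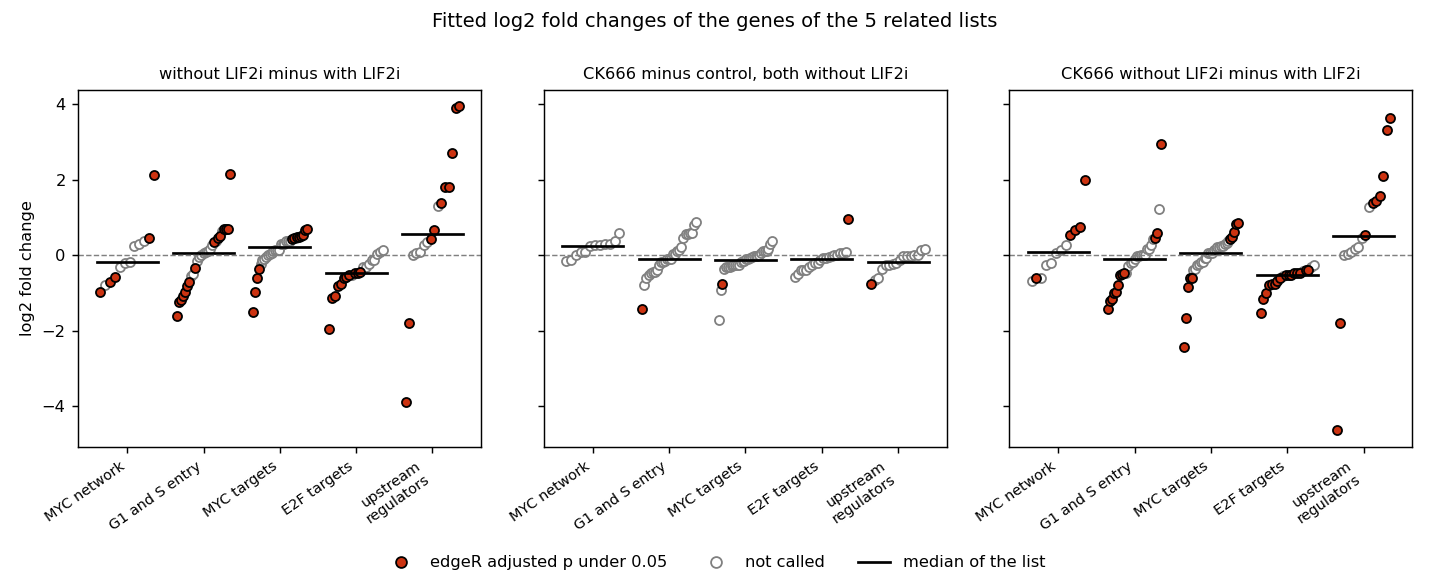
Log2 fold change of the 105 genes of the 5 surrounding lists in the 3 comparisons, 1 point a gene with a bar at the median of each list, filled where the adjusted p is under 0.05. The E2F target genes lie mostly below 0 on withdrawal, with a median of -0.47, and few points are filled in the CK666 comparison.

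The gene whose centred log2 CPM ran closest to each of these over the 9 libraries was found by the root mean square difference, given here as a description. For Mycn it was Tdgf1, which encodes the NODAL co-receptor Cripto, at 0.37 beside a spread of 0.94 of Mycn about its own mean. For Myc it was Stk26 at 0.72 of 1.95, for Mycl Gpc1 at 0.25 of 1.00 and for Ccnd1 Polr1b at 0.37 of 0.88. For Ccnd2 it was Prtg at 0.72 of 2.33, followed by the DNA methyltransferase gene Dnmt3b at 0.83. For Ccnd3 it was Pgm2 at 0.15 of 0.65 and for Cdk6 Atxn1l at 0.14 of 0.71. Cdk4, Cdkn1b and Rb1 had Eef1g at 0.05, Man2a2 at 0.12 and Steap2 at 0.16. The points share libraries, depth and the withdrawal contrast.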

How the data were processed

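Poly-A RNA of 9 E14 cultures was sequenced. For 119414 transcripts per library, estimated counts, TPM and effective lengths were deposited, per the file headers; estimated counts are not normalised, and deposited TPM values are divided by effective length and scaled to a fixed sum. Per the submitters' processing notes, FastQC, cutadapt 1.8.1, kallisto and sleuth were used, with the builds mm10 and GRCh38 named without a role. The kallisto version, strand setting and transcript release are not given in the sources used here. Transcripts were assigned to genes with GENCODE M21 (GRCm38; 97.7% matched), and the 2774 unmatched ones, 0.895% to 1.08% of the counts, were left out. Estimated counts were summed per gene, rounded, filtered with filterByExpr, scaled by TMM and tested with edgeR 4.0.16 (R 4.3.3; robust quasi-likelihood). All 9 libraries entered 1 fit with 4 residual degrees of freedom, and p-values were adjusted by Benjamini-Hochberg over 14648 genes with a threshold of 0.05. The replicate number was a block, since the series calls its biological replicates paired. Same-numbered libraries deviated together from their group means (r 0.30 to 0.65). Replicates 2 and 3 of different groups also did so (r 0.21 to 0.29), while replicate 1 ran against both (r -0.53 to -0.35). The fit was tested on simulated data, where the share of false calls rose above the nominal rate when the spread was drawn from gene-wise dispersions, so adjusted p-values near the threshold may be too small. TPM shares were compared by exact permutation tests over 24 tests, which did not use the pairing by replicate number. Alternatives, 20 in all, changed the block, scaling, filter, tool (limma 3.58.1, DESeq2 1.42.0) or scale (log2 of TPM plus 1 or 0.1, effective length as an offset) or left out libraries. Members and lists were chosen with earlier results of these data known. From the lists, genes named come from those with the largest changes among those that passed, up to 4 in each direction per list, plus Max, Ccne1, Cdk2, Cdkn1a, E2f1 and Rbl1. Intervals and floors cover counting or replicate error only.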

Additional observations from a re-analysis of the deposited data

How the results depend on the processing

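Without the replicate block, 3509 genes passed for withdrawal in place of 5967, 0 for CK666 in place of 300 (1251 at an unadjusted p under 0.05) and 2966 for CK666 against LIF2i in place of 5408. Of the 10 genes, withdrawal then raised 4 and lowered 1, and CK666 raised 0 and lowered 0. For CK666, no filter on low counts gave 565 genes, DESeq2 1100, limma on log2(TPM + 1) 42 and on log2(TPM + 0.1) 23, and the length offset 148. Of the 10 genes, CK666 then lowered 0 without the filter, 3 in DESeq2 and 0 on log2(TPM + 0.1), and withdrawal lowered 1 with library totals, on either TPM scale and with the length offset. Leaving out libraries gave 3099 to 6588 genes for withdrawal, 0 to 1811 for CK666 and 2413 to 6129 for CK666 against LIF2i. For CK666 the extremes were without all libraries numbered 3 (0, with 1360 at an unadjusted p under 0.05) and numbered 1 (1811). Of the 10 genes it gave 1 to 3 lowered by withdrawal, and 0 to 1 raised and 0 to 4 lowered by CK666. The shares kept their direction, at -46.2 to -38.9 points for Mycn and -36.9 to -24.2 for Ccnd3 on withdrawal and 12.1 to 21.4 for Mycl with CK666.

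All changes of sign but that of E2f2 concerned values that had not passed. Ccnd3 under CK666 gave 0.00 on the negative side without the block (-0.00), -0.01 with RLE factors, library totals and DESeq2, -0.05 on both TPM scales, -0.04 with the length offset and -0.21 to 0.21 leaving out libraries. Cdk4 on withdrawal gave 0.01 with library totals and -0.23 to 0.04 leaving out libraries, and -0.09 to 0.18 in CK666 against LIF2i. Cdk6 under CK666 gave 0.31 and 0.32 on the TPM scales, 0.34 with the length offset and -0.07 to 0.05 leaving out libraries. Cdkn1b in CK666 against LIF2i gave 0.02 on both TPM scales, 0.03 with the length offset and -0.30 to 0.08 leaving out libraries. Max in that comparison gave -0.16 on both TPM scales, -0.19 with the length offset and -0.10 to 0.23 leaving out libraries. E2f2, which passed as lowered on withdrawal (-1.18), gave 0.02 on both TPM scales. Cdkn1a under CK666 gave -0.83 to 0.01 leaving out libraries. The cause was not tested. Depth limits Myc and Ccnd2 with LIF2i, which rest on 8 to 83 counts a library.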
